A study of Mus musculus with 12 samples.

Results

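Transcripts of 10 genes of the oxygen-sensing pathway were followed in mouse lung endothelial cells (MLECs) with and without a deletion of the transcription factors Sp1 and Sp3. The genes were Hif1a, Epas1, Arnt, Egln1, Egln3, Vhl, Hif1an, Bnip3, Ndrg1 and Ankrd37. They were chosen by name, as 10 of the 28689 genes of the deposited table, with earlier results of these data known. Control (CTR) MLECs came from mice without the recombinase (VE-CAD-CreERT2-/Sp1 fl/fl/Sp3 fl/fl) that carry the floxed alleles and are given as WT in the sample labels. Double knockout (dKO) MLECs came from littermates with VE-CAD-CreERT2+/Sp1 fl/fl/Sp3 fl/fl, in which a tamoxifen-inducible Cre is driven by the VE-cadherin promoter. Mice of both groups received tamoxifen, and the study used males of 6 to 8 weeks. The cells were purified first with CD31 and then with ICAM2 beads and were grown in culture for 1 to 3 passages, and 6 libraries were made per group. The number of mice behind a library is not given, so p-values measure the spread between these libraries.

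Hypoxia-inducible factors (HIFs) are dimers of an oxygen-regulated alpha subunit and a stable beta subunit. When oxygen is present, prolyl hydroxylases mark the alpha subunit for capture by the Vhl ubiquitin ligase and for degradation, and an asparagine hydroxylase blocks its binding of coactivators. When oxygen is scarce, the dimer accumulates and switches on genes of glycolysis, vessel growth and mitophagy, among them some of its own hydroxylases. The control of HIF acts mostly on the protein, which was not measured here, and the endothelium is known for high levels of Epas1, first described as an endothelial PAS-domain protein.

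Values are FPKM, the fragments per kilobase of a gene scaled to the fragments of its library, which allows a rough comparison between genes. The counting program and annotation are not given, and near-identical copies of a gene can make its value uncertain. Libraries held between 15522370 and 17937491 fragments on genes, recovered from the steps of the FPKM values, so that a single fragment raised a gene of 2 kb by 0.0279 to 0.0322 FPKM. Differences were tested with limma on log2(FPKM + 1), over the 12467 genes that reached 1 FPKM in 6 or more libraries, and adjusted by Benjamini-Hochberg. On this scale the change of scarce transcripts comes out too small. Sp1 averaged 21.2 ± 1.77 FPKM in CTR and was lower in dKO MLECs, at 10.6 ± 1.53 FPKM (SD, n = 6, limma adjusted p = 5.68e-06), whereas Sp3 was at 27.7 ± 2.31 and 25.0 ± 1.64 FPKM with an adjusted p of 0.0902 from limma, so the level of Sp3 gave no check of its label. The sample labels describe extraction from retinas, but 7 retina markers summed to at most 0.529 FPKM in a library, against 202 to 506 FPKM for 10 endothelial markers. The first principal component held 58.3% of the variance and set the groups apart, with CTR libraries from -37.9 to -18.6 and dKO libraries from 26.6 to 34.4; CTR replicate 4 was the CTR library nearest to dKO.

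Between CTR and dKO MLECs these genes did not all differ in one direction. Epas1, Egln1, Egln3, Bnip3 and Ndrg1 were higher and Hif1a, Arnt and Vhl lower in dKO than in CTR MLECs, Hif1an did not pass the test, and Ankrd37 was too low to enter it. Thus 5 of the 9 tested genes were called higher, against 20.4% of all genes tested, and 3 were called lower, against 32.6%, together 8 of 9 against 53.1%. The share called lower was therefore near that of all genes. With median-of-ratios scaling these shares of all genes were 25.8% and 24.2%, and Hif1a lost its call. Groups did not overlap for 3 higher genes (11.3% of all genes tested) and 2 lower genes (16.1%), together 5 of 9 against 27.4%. The median log2 fold change of the 9 genes was 0.41, and that of all genes tested was -0.10. Summed endothelial markers (202 to 334 FPKM in CTR, 374 to 506 in dKO) and macrophage markers (711 to 1244 and 2373 to 5285) were also higher and the sum of fibroblast markers (2147 to 2715 and 836 to 1669), most of it collagen transcripts, lower in dKO libraries. Their part in the differences of the 10 genes was not tested, and in bulk RNA fewer cells of a type and less RNA per cell cannot be told apart.

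**Figure D1:**
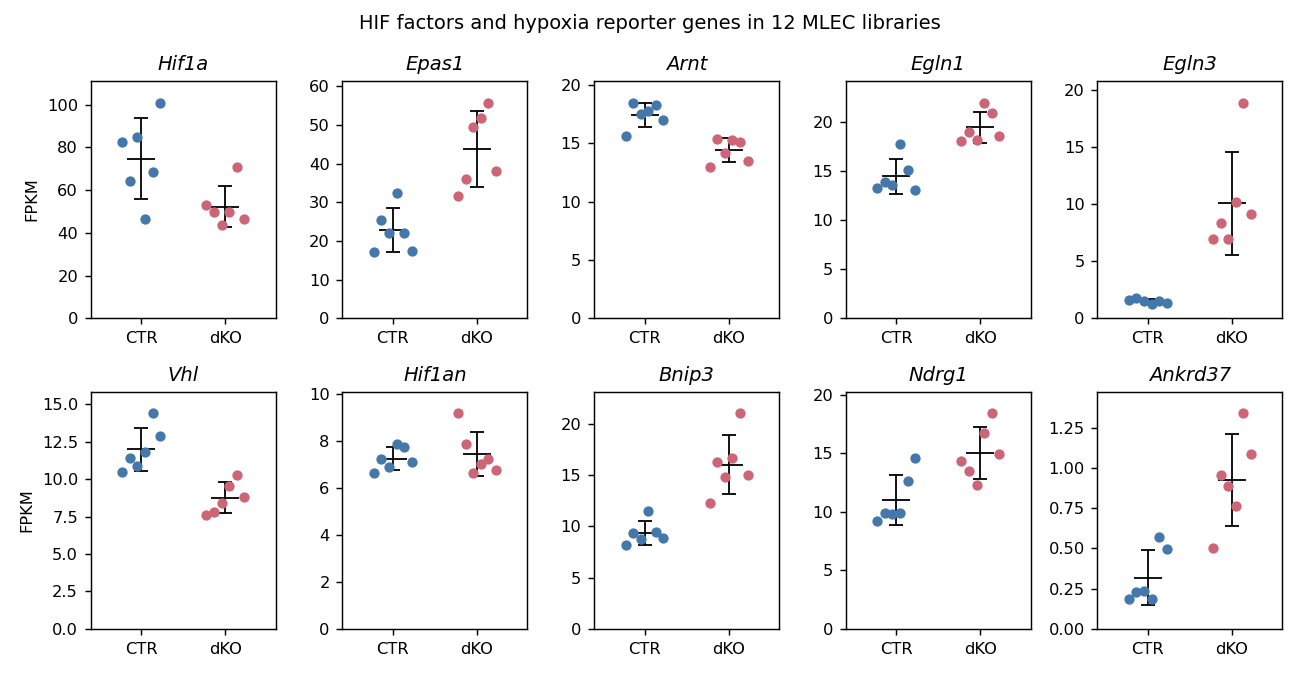
FPKM (vertical axes, each from 0) of the 10 genes in 6 CTR and 6 dKO libraries. Points are single libraries, and bars give the mean and SD; Egln1, Egln3 and Bnip3 lie apart upward and Arnt and Vhl apart downward, while Hif1a and Hif1an overlap between the groups.

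**Figure D2:**
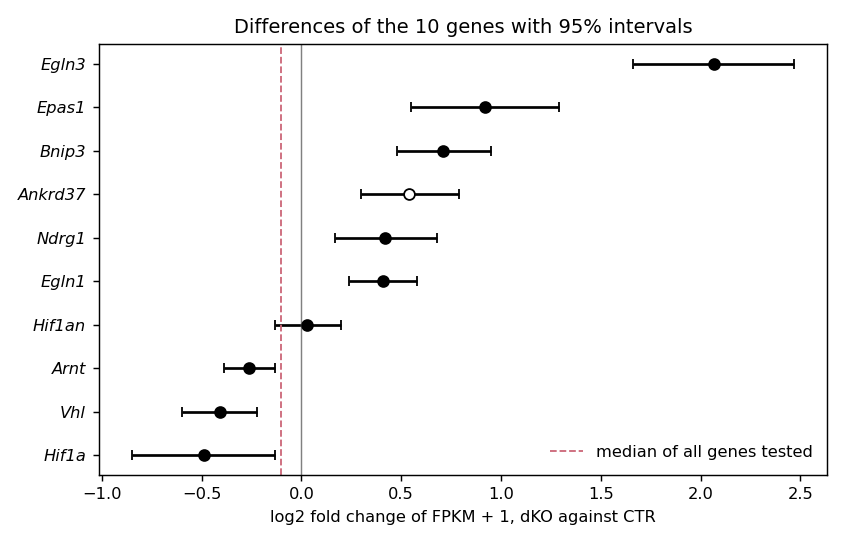
Log2 fold change of FPKM + 1, dKO against CTR, with 95% confidence intervals from limma, for the same 10 genes. The open circle marks Ankrd37, taken from the fit without a filter, and the dashed line the median of all genes tested; Egln3 stands highest at 2.07 and Hif1a lowest at -0.49.

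The alpha subunits moved in opposite directions. Hif1a (ENSMUSG00000021109, chr12:73948149-73996321 of GRCm39) encodes the widely expressed subunit that drives the acute hypoxic response. It ranged from 46.7 to 101 FPKM with a median of 75.7 in CTR and from 43.6 to 70.7 FPKM with a median of 49.8 in dKO. The groups overlapped, since CTR replicate 4 had the lowest CTR value and dKO replicate 5 stood above the other dKO libraries. Mean Hif1a was 74.7 ± 18.9 FPKM in CTR and 52.2 ± 9.59 FPKM in dKO (SD, n = 6), 1.43-fold lower. Its log2 fold change was -0.49 ± 0.17 (SE, limma adjusted p = 0.0259, p = 0.0346 by a two-sided exact permutation test, not adjusted). This call was weak: the adjusted p rose to 0.0659 with median-of-ratios scaling and to 0.055 without a filter on low values. It lay between 0.052 and 0.0578 when CTR replicate 1, 3 or 6 or dKO replicate 3 or 6 was left out. An antisense gene within Hif1a, Gm15283, reached at most 0.951 FPKM.

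Epas1 (ENSMUSG00000024140, chr17:87061087-87140838), which encodes HIF-2 alpha, ranged from 17.2 to 32.4 FPKM with a median of 22 in CTR. In dKO libraries it ranged from 31.7 to 55.8 FPKM with a median of 43.7. Here 5 of the 6 dKO libraries lay above all CTR libraries, and the remaining one, dKO replicate 1, fell just under CTR replicate 4. The mean rose 1.93-fold, from 22.7 ± 5.68 to 43.8 ± 9.76 FPKM (SD, n = 6). The log2 fold change was 0.92 ± 0.17 (SE, limma adjusted p = 0.000634, p = 0.00433 by the exact permutation test).

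Because each library carries its own values for both subunits, their ratio does not depend on library scaling. Hif1a exceeded Epas1 in each CTR library, by a ratio of 1.44 to 5.82, and the ratio in dKO libraries was 0.882 to 1.67. In dKO replicates 3 and 4 the order was turned, with ratios of 0.882 and 0.961. The log2 ratio differed by -1.45 between the groups (two-sided exact permutation test, p = 0.00433, n = 6 per group), and CTR replicate 4 was the only CTR library within the dKO range. The sum of the transcripts was 97.5 ± 14.0 FPKM in CTR and 96.0 ± 16.3 FPKM in dKO (SD, n = 6). Epas1 made up between 14.7% and 41.0% of that sum in CTR and between 37.5% and 53.1% in dKO libraries.

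**Figure D3:**
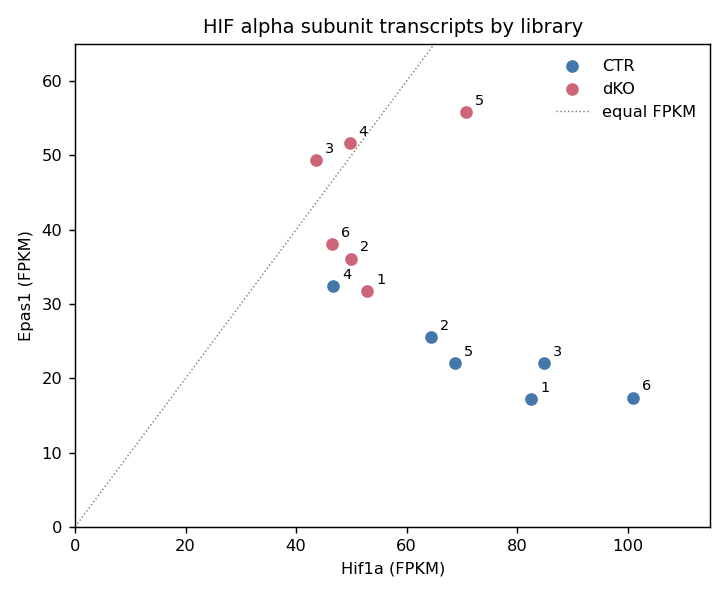
Epas1 against Hif1a, both in FPKM, in each of the 12 libraries, numbered by replicate. The dotted line marks equal FPKM; 5 CTR libraries lie to the lower right, CTR replicate 4 lies among the dKO libraries, and dKO replicates 3 and 4 are above the line.

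Arnt (ENSMUSG00000015522, chr3:95341365-95404551) encodes the beta subunit shared by both alpha subunits. It ranged from 15.6 to 18.5 FPKM with a median of 17.7 in CTR and from 13.0 to 15.4 FPKM with a median of 14.6 in dKO libraries. No dKO library reached the lowest CTR value, although the step was small. The mean fell from 17.5 ± 1.07 to 14.4 ± 1.00 FPKM (SD, n = 6), and its log2 fold change was -0.26 ± 0.06 (SE, limma adjusted p = 0.00354, exact permutation p = 0.00216, the smallest that 6 against 6 allow). A pseudogene on the same strand within Arnt, Gm42672, went from 2.14 ± 1.03 to 0.945 ± 0.930 FPKM (SD, n = 6), and fragments of the overlap could belong to either. Gm42672 held only 77 fragments in CTR and 35 in dKO libraries, against 14319 and 11903 for Arnt. In CTR libraries the mean of Hif1a was the highest of the 10 genes, and its range did not reach that of Epas1, which came next. Ranges of neighbours overlapped from Epas1 through Arnt, Egln1, Vhl and Ndrg1 to Bnip3, so their order in CTR was not resolved, while Hif1an, Egln3 and Ankrd37 followed, each apart from the next. In dKO libraries Hif1a and Epas1 overlapped each other and both stood above the others, whose ranges overlapped from neighbour to neighbour down to Hif1an, with Ankrd37 last and apart.

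Promoter sequences are shown for genes whose levels differed, because Sp1 and Sp3 bind GC boxes and HIF dimers bind short core motifs. Windows of 250 bases upstream of the start site came from RefSeq (GRCm38.p6, a build older than that of the expression values), and 8 of the 10 genes matched; Epas1 and Ndrg1 had no entry. GC boxes were sought as GGGCGG or CCGCCC, and HIF cores as ACGTG or GCGTG on both strands; overlapping HIF cores counted once and overlapping GC boxes separately. A match is a string of letters and not a measured binding site. Of 9095 windows of tested genes, 61.0% held a GC box and 57.4% a HIF core, and of the 8 windows 6 held a GC box and 6 a HIF core. The window of Hif1a, given here with matches in capitals, held 2 HIF cores and 0 GC boxes, and that of Arnt 1 HIF core and 0 GC boxes.
Hif1a (chr12:73907617-73907866, plus strand): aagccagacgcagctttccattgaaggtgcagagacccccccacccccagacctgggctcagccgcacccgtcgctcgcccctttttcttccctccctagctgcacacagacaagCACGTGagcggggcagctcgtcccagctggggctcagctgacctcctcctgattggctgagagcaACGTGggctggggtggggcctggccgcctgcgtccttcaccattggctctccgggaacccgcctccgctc

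Of the prolyl hydroxylases that mark the alpha subunits, Egln1 and Egln3 were higher in dKO MLECs and Egln2, which is not among the 10 genes, did not pass the test (27.0 ± 2.74 FPKM in CTR, 24.3 ± 1.97 FPKM in dKO, SD, n = 6, limma adjusted p = 0.128). Egln2 was named after its value was seen. Egln3 showed the largest difference of all 10 genes. Egln1 (ENSMUSG00000031987, chr8:125635308-125676865), which encodes PHD2, the main oxygen sensor of most cells, ranged from 13.1 to 17.8 FPKM with a median of 13.8 in CTR. In dKO libraries it ranged from 18.1 to 22 FPKM with a median of 18.8, so the lowest dKO value was just above the highest CTR value, that of CTR replicate 4. Mean Egln1 was 14.5 ± 1.79 FPKM in CTR and 19.5 ± 1.59 FPKM in dKO (SD, n = 6). The log2 fold change was 0.41 ± 0.08 (SE, limma adjusted p = 0.000983, exact permutation p = 0.00216).

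Egln3 (ENSMUSG00000035105, chr12:54225767-54250673), which encodes PHD3 and is itself a classic HIF target, was scarce in CTR, from 1.25 to 1.78 FPKM with a median of 1.53. It ranged from 6.91 to 18.9 FPKM with a median of 8.74 in dKO libraries, where dKO replicate 5 had the highest value. No dKO library came near the CTR range. The mean was 1.51 ± 0.193 FPKM in CTR and 10.1 ± 4.50 FPKM in dKO (SD, n = 6), 6.67-fold higher, which rests on 412 and 2776 fragments. With a log2 fold change of 2.07 ± 0.19 (SE, limma adjusted p = 3.45e-06, exact permutation p = 0.00216), Egln3 ranked 73rd from the top among the 12467 genes tested. Of the 9 tested genes, it alone passed the thresholds of the study on the log2(FPKM + 1) scale. As worded in its methods, these ask for a change of over 1.5 on the log2 scale besides an adjusted p under 0.05. Of all genes tested, 1.98% passed them. The study applied its thresholds with DESeq2 and not to log2(FPKM + 1), so this share is not comparable with its own count. A figure legend of the study gives a change of over 1.5-fold instead, a cut applied further below. Ankrd37 was not tested, and limma-voom on recovered fragments without a filter gave it a log2 fold change of 1.57 (adjusted p = 0.00253).

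Within a library, Egln3 reached between 0.0700 and 0.128 of the FPKM of Egln1 in CTR and between 0.379 and 0.903 in dKO. The log2 ratio differed by 2.22 (two-sided exact permutation test, p = 0.00216, n = 6 per group), and the groups did not overlap. The windows of these hydroxylases differed in letters. That of Egln1 held 7 GC boxes and 2 HIF cores, and that of Egln3 held 1 GC box near the start site and 1 HIF core far from it; capitals mark both kinds of match.
Egln1 (chr8:124949255-124949504, minus strand): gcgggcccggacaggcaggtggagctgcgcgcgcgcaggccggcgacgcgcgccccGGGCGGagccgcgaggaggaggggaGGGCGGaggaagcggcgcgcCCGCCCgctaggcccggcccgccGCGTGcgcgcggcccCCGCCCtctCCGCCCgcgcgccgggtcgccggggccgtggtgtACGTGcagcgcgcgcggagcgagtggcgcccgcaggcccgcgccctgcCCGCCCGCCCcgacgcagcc
Egln3 (chr12:54203875-54204124, minus strand): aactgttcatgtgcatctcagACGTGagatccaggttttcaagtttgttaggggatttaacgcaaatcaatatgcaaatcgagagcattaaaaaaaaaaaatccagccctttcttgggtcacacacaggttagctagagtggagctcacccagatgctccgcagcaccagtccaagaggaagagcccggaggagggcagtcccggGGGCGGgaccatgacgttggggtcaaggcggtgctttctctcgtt

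Vhl and Hif1an encode the other arms of alpha subunit control and behaved differently from each other. Vhl (ENSMUSG00000033933, chr6:113600920-113608599), the subunit of the ubiquitin ligase that recognises hydroxylated HIF alpha, ranged from 10.5 to 14.4 FPKM with a median of 11.6 in CTR. The dKO range was 7.63 to 10.3 FPKM with a median of 8.62, with no dKO library reaching the CTR range. The mean fell from 12 ± 1.44 to 8.76 ± 1.03 FPKM (SD, n = 6), and its log2 fold change was -0.41 ± 0.09 (SE, limma adjusted p = 0.00186, exact permutation p = 0.00216). Hif1an (ENSMUSG00000036450, chr19:44551286-44568723), which encodes the asparagine hydroxylase FIH, ranged from 6.61 to 7.85 FPKM with a median of 7.16 in CTR. In dKO it ranged from 6.65 to 9.17 FPKM with a median of 7.12, and the groups overlapped almost fully. Its log2 fold change of 0.03 had a 95% interval from -0.13 to 0.20 (adjusted p = 0.75 from limma).

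The window of Vhl, shown because this gene fell without overlap, held 7 GC boxes in its part nearest the start site and 0 HIF cores. The window of Hif1an held 1 GC box and 0 HIF cores.
Vhl (chr6:113623744-113623993, plus strand): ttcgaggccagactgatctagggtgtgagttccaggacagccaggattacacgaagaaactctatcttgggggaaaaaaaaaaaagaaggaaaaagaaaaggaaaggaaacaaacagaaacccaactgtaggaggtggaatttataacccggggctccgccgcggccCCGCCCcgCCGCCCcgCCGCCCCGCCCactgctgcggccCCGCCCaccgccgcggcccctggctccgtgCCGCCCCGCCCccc

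Bnip3, Ndrg1 and Ankrd37, often used as transcript reporters of HIF activity, were all at higher FPKM in dKO MLECs. Bnip3 (ENSMUSG00000078566, chr7:138490690-138511253), which encodes a mitochondrial receptor for mitophagy, ranged from 8.18 to 11.5 FPKM with a median of 9.07 in CTR and from 12.3 to 21.0 FPKM with a median of 15.7 in dKO. The lowest dKO library stood above CTR replicate 4, the highest of the CTR group. The mean rose 1.72-fold, from 9.32 ± 1.13 to 16 ± 2.89 FPKM (SD, n = 6), and its log2 fold change was 0.71 ± 0.11 (SE, limma adjusted p = 0.00017, exact permutation p = 0.00216). Near-identical copies of Bnip3, Gm9419 and Gm6532, reached at most 0.698 FPKM, far under Bnip3 itself.

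Ndrg1 (ENSMUSG00000005125, chr15:66801166-66841835), a stress-responsive gene of the N-myc downstream regulated family, ranged from 9.17 to 14.6 FPKM with a median of 9.88 in CTR. It ranged from 12.3 to 18.4 FPKM with a median of 14.6 in dKO, and only 3 of the 6 dKO libraries lay above all CTR libraries, as CTR replicates 5 and 6 reached the dKO range. The mean rose from 11.0 ± 2.16 to 15 ± 2.21 FPKM (SD, n = 6), and its log2 fold change was 0.42 ± 0.12 (SE, limma adjusted p = 0.00967, exact permutation p = 0.0173).

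Ankrd37 (ENSMUSG00000050914, chr8:46449939-46458744), a short ankyrin-repeat gene with strong hypoxic induction in many cells, was near the limit of detection. It ranged from 0.186 to 0.570 FPKM with a median of 0.233 in CTR and from 0.502 to 1.34 FPKM with a median of 0.922 in dKO libraries, with 5 to 36 fragments in a library. In 5 of the 6 dKO libraries it exceeded all CTR libraries. It failed the filter, and the fit without a filter gave a log2 fold change of 0.54 ± 0.11 (SE, limma adjusted p = 0.00347, exact permutation p = 0.00433). Ankrd37 overlaps Ufsp2 on the opposite strand, which was at 12.4 ± 1.11 FPKM in CTR and 11.0 ± 0.948 FPKM in dKO (SD, n = 6, adjusted p = 0.0997 from limma); whether the counting used strand is not stated, so fragments of the overlap could belong to either gene.

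The window of Bnip3, shown as that of a reporter gene without overlap between the groups, held 6 GC boxes interleaved with 4 HIF cores. The window of Ankrd37 held 2 GC boxes and 3 HIF cores.
Bnip3 (chr7:138909507-138909756, minus strand): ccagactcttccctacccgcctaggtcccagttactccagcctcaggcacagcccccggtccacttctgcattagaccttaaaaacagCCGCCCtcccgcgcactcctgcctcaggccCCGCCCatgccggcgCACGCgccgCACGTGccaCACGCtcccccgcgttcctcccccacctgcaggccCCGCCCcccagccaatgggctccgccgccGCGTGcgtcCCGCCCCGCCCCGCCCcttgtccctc

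Past a change of 1.5-fold with an adjusted p under 0.05 stood 3 of the 9 tested genes, Epas1, Egln3 and Bnip3, all higher in dKO, against 8.92% of all genes tested that were higher by this rule. Of the lower genes 0 passed it, against 8.98%, and in either direction 17.9% of all genes did. Among all tested genes, those with profiles most like Egln3 over the 12 libraries were Hoxd9, Hoxd8 and Ube2ql1, with root mean square differences of 0.138, 0.269 and 0.285 on the centred log2 scale. Hoxd9 went from 0.415 ± 0.122 to 4.81 ± 2.29 FPKM (SD, n = 6). Nearest to Epas1 were Slc31a2, Acer2 and Adamtsl4, at 0.159, 0.159 and 0.168, and nearest to Bnip3 were Synpo2, Fgd5 and She, at 0.0997, 0.121 and 0.126.

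The wider pathway was described with 4 lists. Of 13 other regulators of HIF, 12 were tested, 0 were called higher and 3 lower, against 20.4% and 32.6% of all genes tested, and the median log2 fold change was -0.15. The share called lower was thus not above that of all genes. These 3 were Cul2, the cullin scaffold of the Vhl ligase, at 20.3 ± 3.40 FPKM in CTR and 13.8 ± 0.943 FPKM in dKO (SD, n = 6, log2 fold change -0.51, adjusted p = 0.000978 from limma), and the ubiquitin ligases Siah1a (-0.31, adjusted p = 0.00206) and Siah2 (-0.23, adjusted p = 0.0142). Siah2 was named after its value was seen. With median-of-ratios scaling 1 regulator was called higher and 2 lower.

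Of 16 glycolytic HIF targets, all of them tested, 11 were called higher and 1 lower, against 20.4% and 32.6% of all genes tested, and the median log2 fold change was 0.67. Pgam1, a phosphoglycerate mutase, rose from 108 ± 17.1 to 235 ± 23.5 FPKM (SD, n = 6, log2 fold change 1.12, adjusted p = 3.87e-06 from limma). Slc16a3, the lactate exporter MCT4, rose from 6.39 ± 2.23 to 14.4 ± 3.76 FPKM (SD, n = 6, log2 fold change 1.08, adjusted p = 0.000471 from limma). The 1 lower gene was Gys1, muscle-type glycogen synthase, with a log2 fold change of -0.36 and an adjusted p of 0.0106 from limma. Copies of Pgam1 and of 6 other list members exist in the table, 67 of them for Gapdh, so the share of fragments of those genes is uncertain.

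Of 25 other HIF targets, 24 were tested, 11 were called higher and 5 lower, against 20.4% and 32.6% of all genes tested, and the median log2 fold change was 0.30. The share called lower was below that of all genes. Tfrc, the transferrin receptor, rose from 5.31 ± 1.07 to 13.1 ± 6.21 FPKM (SD, n = 6, log2 fold change 1.07, adjusted p = 0.00165 from limma) and Hmox1, heme oxygenase, from 127 ± 29.3 to 234 ± 69.8 FPKM (SD, n = 6, log2 fold change 0.86, adjusted p = 0.00205). On the other side, Ero1a, an oxidase of the endoplasmic reticulum, fell from 37.1 ± 9.23 to 20.4 ± 4.08 FPKM (SD, n = 6, log2 fold change -0.81, adjusted p = 0.00103 from limma). Vegfa, the main vascular growth factor of the hypoxic response, fell from 47.8 ± 14.5 to 26.5 ± 2.34 FPKM (SD, n = 6, log2 fold change -0.77, adjusted p = 0.00268 from limma). The remaining lower genes, Ddit4, Stc2 and Wsb1, had log2 fold changes of -0.74, -0.64 and -0.37, and were named after their values were seen.

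Of 14 endothelial genes with a hypoxia response, 13 were tested, 7 were called higher and 0 lower, against 20.4% and 32.6% of all genes tested, and the median log2 fold change was 0.49. All 10 endothelial markers were called higher as well, with a median log2 fold change of 0.83, above that of this list. Whether the list differed apart from these markers was not tested. Adm, the vasodilator peptide adrenomedullin, rose from 68.8 ± 11.5 to 144 ± 33.3 FPKM (SD, n = 6, log2 fold change 1.04, adjusted p = 8.18e-05 from limma). Esm1, an endothelial tip cell gene, rose from 6.5 ± 1.55 to 13.9 ± 3.71 FPKM (SD, n = 6, log2 fold change 0.98, adjusted p = 0.000366 from limma).

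**Figure D4:**
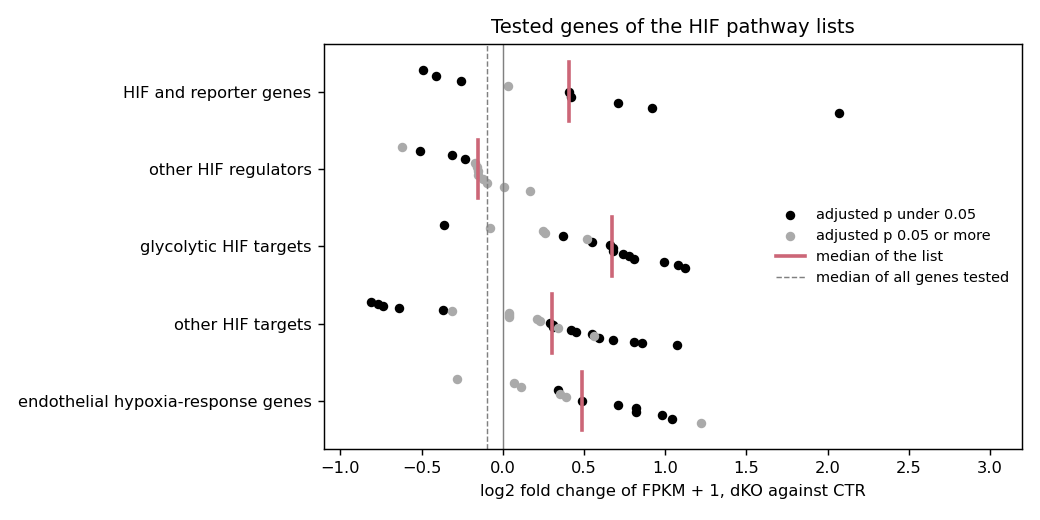
Log2 fold change of FPKM + 1, dKO against CTR, of each tested gene in the 10 genes (9 tested) and in 4 pathway lists. Black points have an adjusted p under 0.05 from limma and grey points do not, coloured bars are list medians, and the dashed line is the median of all genes tested; the glycolytic list has the highest median, 0.67, and the other regulators the lowest, -0.15.

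Markers of several cell types also differed between the groups, and whether they moved with the 10 genes was not tested. All 10 endothelial markers and all 10 macrophage markers were called higher, and the most abundant macrophage marker, Lyz2, went from 746 ± 160 to 1868 ± 580 FPKM (SD, n = 6). Of 10 other leukocyte markers 5 were tested, 4 were called higher, and the sums were 30.7 to 49.5 and 55.3 to 129 FPKM. Of the 7 fibroblast markers tested, Col1a1, Col1a2, Col3a1 and Fbln1 were called lower, with log2 fold changes of -1.07, -0.77, -1.12 and -1.05. Dcn was called higher, from 6.82 ± 3.2 to 17.8 ± 3.78 FPKM (SD, n = 6, limma adjusted p = 0.00033), and Pdgfra (-0.18) and Tcf21 (0.38) did not pass the test. Fibroblast markers other than Col1a1 were named after their values were seen. Mesothelial markers were called higher in 5 of 6, with sums of 28.8 to 38.6 and 66.3 to 146 FPKM, and lung epithelial markers in 1 of 5, with sums of 82.1 to 482 and 143 to 345 FPKM. Of the other leukocyte markers, Cd3e of T cells and Ly6g of neutrophils averaged 0 FPKM in CTR and 0.00233 and 0.00986 FPKM in dKO, and Nkg7 of natural killer cells 0.0107 and 0.0227 FPKM. By contrast, S100a8, a marker of neutrophils and other myeloid cells in that list, was called higher. It went from 2.12 ± 1.19 to 5.5 ± 1.53 FPKM (SD, n = 6, limma adjusted p = 0.00256) and was named after its value was seen. The most abundant markers of the other lists were Cdh5 (88.9 ± 16.1 FPKM in CTR, 140 ± 17.1 in dKO), Laptm5 (31.9 ± 5.70 and 69.8 ± 21.8), Col1a1 (1173 ± 65.1 and 572 ± 128), Msln (15.8 ± 3.78 and 42.9 ± 19.5) and Sftpc (180 ± 131 and 192 ± 71.2).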

How the data were processed

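Per the labels and the study's methods, RNA of 6 CTR and 6 dKO cultures of MLECs was sequenced as paired reads. The authors used Trimmomatic for trimming and STAR for alignment to mm39, kept reads with a unique position and mapped those a further time. The submitters' processing notes list Bowtie2 2.2.3, HISAT2 2.1.0, TopHat2 and DESeq2. The counting program, annotation and strand setting are not given in the sources used here. The deposited values are FPKM per gene and library, made by the authors and not scaled further between libraries. The columns named TAM were matched to the knockout labels, although both groups received tamoxifen.

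FPKM values were compared as log2(FPKM + 1) with limma 3.58.1 (R 4.3.3; linear model on the 12 libraries, no covariate, empirical Bayes with a trend), over genes with FPKM of at least 1 in at least 6 libraries, with Benjamini-Hochberg adjustment at 0.05. Single genes and ratios were also compared by two-sided exact permutation tests of the group labels over libraries. Whole fragments were recovered from the FPKM steps for 100% of genes, within 0.003 fragments, a tolerance that grew in proportion for genes with the highest counts; they gave the depth and a limma-voom alternative. No filter, other filters, pseudocounts and scalings, a replicate block and leaving out each library were also tried, and both fits and recovery were tested on simulated data. Gene positions came from GENCODE on GRCm39, and 27706 of 28689 genes matched by Ensembl identifier, which gave the symbols.

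The 10 genes and all lists were chosen with earlier results of these data known. Named from each pathway list were, among called genes, up to 2 at the top and up to 2 at the bottom by log2 fold change, and for the 3 genes with the largest change the 3 most similar profiles, as root mean square difference of centred log2 values. Of each marker list, the most abundant gene and those at or near 0 were named.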

Additional observations from a re-analysis of the deposited data

Results flagged for a closer look

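In 6 of 64 groups of 6 values, 1 library lay apart from the others by Dixon's criterion, where chance gives 3.2. Egln3 was at 18.9 FPKM in dKO replicate 5, against 6.91 to 10.2 FPKM in the other dKO libraries. The Egln3 to Egln1 ratio in that library was 0.903, against 0.379 to 0.489. Hif1a was at 70.7 FPKM in dKO replicate 5, against 43.6 to 52.9 FPKM, and Slc16a3 at 21.9 FPKM, against 11.7 to 14.1 FPKM. Bnip3 was at 11.5 FPKM in CTR replicate 4, against 8.18 to 9.39 FPKM in the other CTR libraries. Tfrc was at 24.9 FPKM in dKO replicate 1, against 6.44 to 13.3 FPKM. Without any 1 library, the log2 fold change of Egln3 stayed between 1.88 and 2.15 and that of Bnip3 between 0.63 and 0.78.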

How the results depend on the processing

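Epas1, Arnt, Egln1, Egln3, Vhl, Bnip3 and Ndrg1 kept their direction and their call under each of the alternatives tried. Hif1a kept its direction and lost its call without a filter, with median-of-ratios scaling and without any of 5 libraries, as given above. Hif1an, which was not called, changed sign to -0.01 after rescaling to TPM, and ranged from -0.02 to 0.06 when 1 library was left out, with the negative value without dKO replicate 1. The count of other HIF regulators called lower, 3, became 5 with TPM and lay between 3 and 5 when 1 library was left out, with 5 without CTR replicate 6. All genes called fell from 6614 to 4222 when FPKM of at least 5 was required, where fewer genes were tested. The cause of the other changes was not tested. Median-of-ratios scaling moved the median log2 fold change of all genes from -0.10 to -0.02 and called 3213 genes higher and 3012 lower, against 2549 and 4065. Ankrd37 had only 5 to 36 fragments in a library, and its log2 fold change was 1.57 by limma-voom without a filter, an alternative chosen after seeing the data.

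Whether replicate numbers pair the samples is not stated and was not resolved by the values. Deviations of same-numbered CTR and dKO libraries correlated between -0.108 and 0.565, and 2 of 6 matched their own number best. With the replicate number as a block, limma called 8 of the 9 tested genes and 6955 genes in all, and 4 other regulators, 13 glycolytic targets, 19 other targets and 9 endothelial genes. Exact permutation within these pairs gave p = 0.0312, the smallest possible, for both ratios, and p = 0.125 for Hif1a. Protein identity between family members was not run.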

Other observations

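In dKO replicate 5, 7 of the 10 genes had the highest value of their group, among them Hif1a and Vhl, which were lower in dKO than in CTR. In dKO replicate 1, 6 had the lowest value, Arnt and Vhl included. The summed FPKM of the 16 glycolytic targets was highest in these same libraries, at 1636 and 1631, against 1236 to 1474 in the other dKO libraries. Among CTR libraries, replicate 4 had the highest Epas1, Egln1, Bnip3 and Hif1an and the lowest Hif1a and Egln3, so its Egln3 to Egln1 ratio, 0.0700, was the lowest of all libraries while its Hif1a to Epas1 ratio, 1.44, lay within the dKO range. Its summed endothelial (334 FPKM), macrophage (1244 FPKM), other leukocyte (49.5 FPKM) and lung epithelial markers (482 FPKM) were each the highest of the CTR group, and the last was the highest of all 12 libraries. In dKO replicate 5 the macrophage (2373 FPKM) and other leukocyte sums (55.3 FPKM) were the lowest of the dKO group. Its endothelial (492 FPKM) and lung epithelial sums (208 FPKM) lay within the range of the other dKO libraries. The part of these markers in the values of either library was not tested.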
